A study of Mus musculus with 6 samples.

Results

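The genes described here encode lysosomal hydrolases, their helper proteins and proteins of the lysosomal membrane. They were 31 genes named by symbol, and 30 of them had at least 1 probe set annotated with that symbol alone, among 18193 genes with such a probe set on the array. Each gene was represented by its probe set with the highest mean over the 6 arrays. Cd63 is not analysed here. The 30 genes comprise 10 glycosidases, 5 sulfatases, 7 lipid enzymes and lipid carriers, 6 membrane proteins, and the protease Tpp1 and progranulin (Grn).

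Both groups were bone marrow macrophages of C57BL/6 mice lacking TNFR1 and TNFR2, made to express a retroviral chimeric receptor and selected with puromycin (2 ug/ml, 3 days). The receptor carries the external domain of mouse TNFR1 on the transmembrane and intracellular domain of RANK. The RANK part was intact on the 3 wild-type arrays, whereas the 3 mutant arrays came from cells whose receptor had an inactivated IVVY motif. All cells received M-CSF at 44 ng/ml and TNFα at 10 ng/ml for 24 hours, so the arrays hold no untreated control. Each array measured RNA pooled from 6 dishes, and the 3 replicate numbers are taken here as the 3 independent assays that the labels describe. The labels state neither the age of the mice nor whether the assays used different mice, so p-values measure only the spread between these arrays. The receptor is supplied by a virus and answers to TNFα through a foreign external domain, which limits the cells as a model of RANK itself. The series asks which macrophage genes depend on the IVVY motif.

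Lysosomes are acidic organelles in which hydrolases take apart sugars, sulfated glycans, lipids and proteins delivered by endocytosis, phagocytosis and autophagy. Most soluble hydrolases carry a mannose 6-phosphate tag that receptors read in the Golgi, and many hydrolases and membrane proteins are under the transcription factor TFEB and its relatives, which bind E-box sequences. Macrophages are rich in lysosomes, and osteoclasts, which arise from the same precursors under RANK signalling, release lysosomal contents towards bone.

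The E-box letters were searched in RefSeq promoters (build GRCm38.p6, 250 bases before to 50 after the start site), because they are the sequence feature through which these genes are best known to be regulated together. The table held 29 promoters of 28 of the 31 genes. The core CACGTG, which reads the same on both strands, was present in 8 of the 29 (27.6%) and in 7.15% of all 32851 promoters of this length. The longer palindrome TCACGTGA, which contains the core, was present in 2 of the 29 (6.9%) and in 0.974% of all. The stretches below are the most dense examples and those of Glb1 and Arsa. Glb1 and Arsa were lower in the mutant in every same-numbered pair of arrays, whereas Lamp1, Mcoln1 and Gla were not. Capitals mark the core or, where present, the longer palindrome. The stretches lie at chr8:13159070-13159160 on the plus strand (Lamp1, 4 cores), chr8:3500418-3500509 on the plus strand (Mcoln1, 1 core and 1 palindrome), chrX:134601164-134601255 on the minus strand (Gla, 2 palindromes), chr9:114401000-114401065 on the plus strand (Glb1) and chr15:89477425-89477470 on the minus strand (Arsa). All are upstream of the start site and are written 5′ to 3′ on the strand of the gene.
Lamp1: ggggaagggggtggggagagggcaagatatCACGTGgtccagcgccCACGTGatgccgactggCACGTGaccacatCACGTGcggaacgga
Mcoln1: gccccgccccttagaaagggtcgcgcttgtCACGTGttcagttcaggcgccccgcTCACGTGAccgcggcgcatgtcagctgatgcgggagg
Gla: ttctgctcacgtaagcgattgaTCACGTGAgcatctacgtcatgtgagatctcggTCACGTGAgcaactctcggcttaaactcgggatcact
Glb1: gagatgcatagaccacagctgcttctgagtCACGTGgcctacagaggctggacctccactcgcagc
Arsa: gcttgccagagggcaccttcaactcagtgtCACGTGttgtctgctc

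In Lamp1 the cores start at -61, -45, -28 and -15 relative to the start site, in Glb1 at -48 and in Arsa at -16. In Mcoln1 the core starts at -71 and the palindrome at -46. In Gla the palindromes start further upstream, at -228 and -195. The other genes with a core were Naglu, Gaa and Sgsh. A match describes the letters of this window and shows no binding, and the absence of a match says nothing about the factor.

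The mean differences of the lysosomal genes between the groups were small, which does not show equal levels. Osteoclast genes such as Acp5 differed by large factors on the same arrays, though without passing the adjusted test. Differences are given as mutant minus wild type on the log2(intensity + 16) scale, with the standard error (SE) of limma, a linear model test fitted across all probe sets. The SE also holds the differences between assays. Over the 30 genes the median log2 difference was -0.0272, with a range from -0.33 (Arsb) to 0.19 (Galns), and over all 10372 genes tested the median was 0.00871. The mean was lower in the mutant for 17 of the 30 genes (56.7%) and for 46.8% of all genes. That balance turned when mutant array 1 was left out (11 genes lower), when wild-type array 2 was left out (14) and when the pair of assay 1 was left out (13). By limma 0 of the 30 genes passed (adjusted p under 0.05 over all probe sets), where 0.0% of all 22497 probe sets passed, and 0 of the 30 had an unadjusted p under 0.05 against 1.14% of all genes. In these bulk samples, fewer cells of a type and less RNA per cell cannot be told apart.

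The intervals of the representing probe sets describe the precision of each difference. They hold for 1 gene at a time and are not adjusted for the number of genes. In the limma fit with the assay as a block, the 95% interval of the difference lay within 2-fold either way for 29 of the 30 genes (96.7%, against 93.3% of all genes), the exception being Arsb. It lay within 1.5-fold for 27 of the 30 (90.0%, against 75.3%), the others being Arsb, Galns and Gla. Without the block 28 of 30 lay within 2-fold, against 75.6% of all genes. Some, not all, of the other probe sets of these genes had intervals beyond 2-fold with the block. On the log2 scale that of Gm2a ran from -1.42 to 0.42 and a faint one of Sgsh from -1.54 to 1.03. A different measure, the summed intensity of 10 osteoclast markers, ranged from 1128 to 1892 in the mutant and from 8587 to 27452 in the wild type. Acp5, Ctsk and Mmp9 made up most of this sum in the wild type. Oscar and Itgb3 lay below the filter, and Atp6v0d2 overlapped between the groups.

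**Figure D1:**
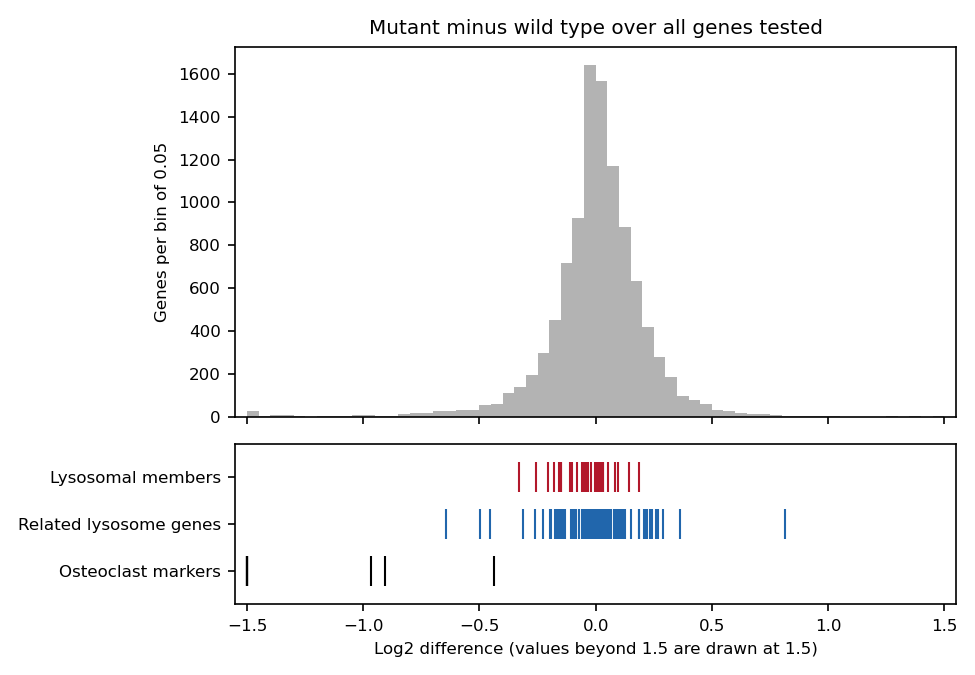
Upper part: number of genes (y axis) per bin of 0.05 of the log2 difference, mutant minus wild type (x axis), for the 10372 genes tested. Lower part: each tick is 1 gene; the lysosomal genes lie between -0.33 and 0.19, the related lysosome genes spread more widely, and the 8 osteoclast markers above the filter all lie to the left, with values beyond 1.5 drawn at the edge.

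Within same-numbered pairs, assays 1 and 2 had more lysosomal genes lower than higher in the mutant, and assay 3 had fewer. In assay 1, 21 of the 30 genes read lower on the mutant array (median log2 difference -0.13). In assay 2, 18 were lower, with a median of -0.0432. In assay 3, 10 were lower, with a median of 0.0753. Over all genes the shares lower were 50.8%, 43.8% and 49.6% in assays 1, 2 and 3. Lower in every pair were 5 of the 30 genes (16.7%, against 12.0% of all genes), and higher in every pair were 2 (6.67%, against 14.5%). With the pair of assay 3 left out, 13 genes were lower and 4 higher in both remaining pairs. Without the pair of assay 1, 7 were lower and 9 higher, and without that of assay 2, 6 and 5. Fewer pairs make the condition looser by construction. No gene of the 30 had all mutant arrays below or above all wild-type arrays, which 1.96% and 1.36% of all genes had. The share lower in every pair lies above the background and the share higher in every pair below it, and neither gap was tested.

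**Figure D2:**
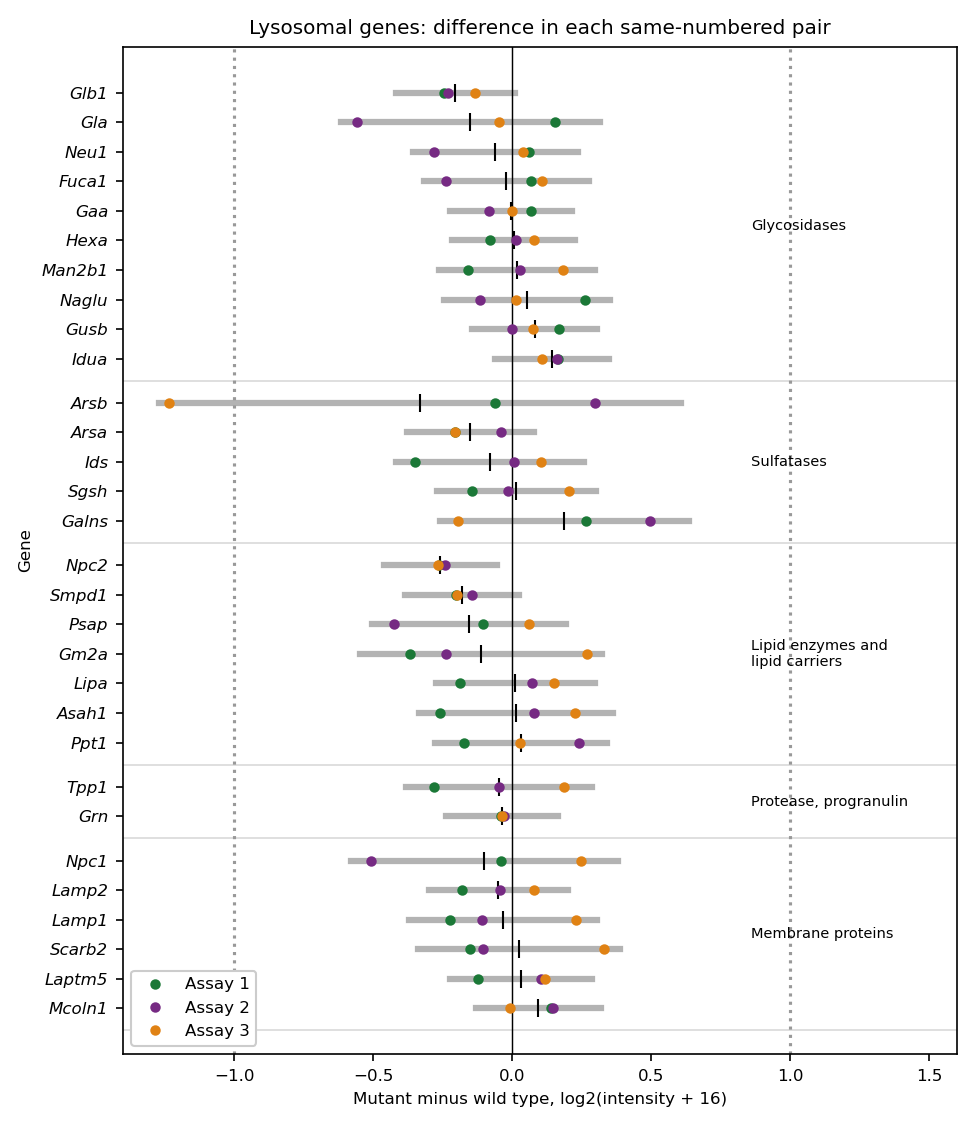
Log2 difference, mutant minus wild type (x axis), of each lysosomal gene (y axis), by class. Coloured points are the 3 assays, the black tick is their mean, the grey bar is the 95% interval of limma with the assay as a block, and dotted lines mark 2-fold. Every bar but that of Arsb stays inside the dotted lines, and the points of most genes lie on both sides of 0.

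Among the glycosidases, which remove sugars from glycoproteins, glycolipids and glycosaminoglycans, the median log2 difference was 0.000185 over 10 genes. Hexa, the alpha subunit of beta-hexosaminidase, read 15690, 19462 and 19942 on mutant arrays 1, 2 and 3 and 16571, 19252 and 18889 on the wild-type arrays. The groups overlapped almost entirely, and the difference was 0.01 ± 0.14 SE. Glb1, the lysosomal beta-galactosidase, read 1095, 1071 and 1653 on the mutant arrays and 1302, 1259 and 1816 on the wild-type arrays. Each mutant array differed from its partner by -15.7% to -8.91%, but assay 3 was higher in both groups, so the groups overlapped. Its difference of -0.20 ± 0.24 SE did not pass (limma, unadjusted p = 0.430, or 0.0573 with the assay as a block, adjusted p = 0.859).

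Idua, which removes iduronic acid from heparan and dermatan sulfate, read 384, 591 and 476 on the mutant arrays and 341, 527 and 441 on the wild-type arrays. It was 7.81% to 12.0% above its partner in every pair, with a difference of 0.14 ± 0.23 SE that did not pass and turned negative without mutant array 2 or wild-type array 1. A fainter Idua probe set differed by 0.21, -0.23 and 0.03 in the 3 pairs. Gusb, the beta-glucuronidase long used as a lysosomal marker enzyme, read 10668, 11711 and 9270 on the mutant arrays and 9478, 11701 and 8808 on the wild-type arrays. It was higher in every pair, but by only 0.0850% in assay 2, and its other probe set differed by -0.76 there. The sign of the Gusb difference turned when its probe sets were averaged, and also without wild-type array 3.

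Other glycosidases went in different directions from assay to assay. Gla, the alpha-galactosidase that is lacking in Fabry disease, read 1586, 973 and 1638 on the mutant and 1424, 1441 and 1691 on the wild-type arrays. Mutant array 2 was the low one, and the difference of -0.15 ± 0.23 SE turned positive without that array. Gaa, the acid alpha-glucosidase that degrades glycogen, differed by less than 0.01 in the mean, with pair values from -0.08 to 0.07. Man2b1, an alpha-mannosidase, differed by 0.02 ± 0.11 SE, with pair values from -0.16 to 0.18. Naglu, which acts on heparan sulfate, differed by 0.05 ± 0.21 SE. Fuca1, an alpha-fucosidase, differed by -0.02 ± 0.14 SE and the sialidase Neu1 by -0.06 ± 0.16 SE. In both of these the pair of assay 2 was the low one, at -0.24 and -0.28, and the other pairs lay between 0.04 and 0.11.

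The 5 sulfatases, which remove sulfate groups from glycans and sulfatide, had a median log2 difference of -0.0792. This median turned to 0.0406 without mutant array 3, to 0.00731 without wild-type array 2 and to 0.0553 without the pair of assay 1. Arsa, which acts on sulfatide, read 577, 665 and 411 on the mutant arrays and 667, 685 and 476 on the wild-type arrays. It differed from its partner by -13.2% to -2.85% in the 3 pairs, less than the spread between assays, and the difference of -0.15 ± 0.24 SE did not pass. Without mutant array 3 it was 0.0406. Ids, which acts on iduronate 2-sulfate, read 1694, 2314 and 1834 on the mutant and 2160, 2302 and 1707 on the wild-type arrays. It was lower in assay 1 only, and differed by -0.08 ± 0.18 SE. Sgsh, the sulfamidase of heparan sulfate breakdown, read 360, 739 and 628 against 400, 746 and 543. Both groups were lowest in assay 1, and the difference was 0.02 ± 0.35 SE.

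Arsb and Galns, chosen here after their values were seen, had the largest SE of the 30 genes, which also holds the differences between assays. Arsb, which acts on dermatan and chondroitin sulfate, read 1548, 787 and 354 on the mutant arrays and 1615, 637 and 854 on the wild-type arrays. Mutant array 3 differed from its partner by -57.5%, while mutant array 2 was 23.1% above its own. A fainter probe set, with 67.5, 34.5 and 34.5 against 59.0, 28.2 and 76.1, was also lowest relative to its partner in assay 3, but was higher in assay 1. The difference was -0.33 ± 0.62 SE, and 0.12 without the pair of assay 3. Galns, which acts on keratan sulfate and chondroitin sulfate, read 776, 848 and 273 on the mutant and 644, 597 and 315 on the wild-type arrays. It was low on both arrays of assay 3, and the difference was 0.19 ± 0.52 SE with a 95% interval from -0.26 to 0.64 (limma with the block).

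Of the 7 lipid enzymes and lipid carriers, whose median log2 difference was -0.11, Npc2 was the gene with the smallest p. Npc2 is the soluble carrier that hands cholesterol to Npc1 for export from the lysosome. It read 14148, 14368 and 17552 on the mutant arrays and 17001, 16985 and 21141 on the wild-type arrays. Every mutant array differed from its partner by -17.0% to -15.4%, a narrow spread, although mutant array 3 exceeded wild-type arrays 1 and 2. The difference was -0.26 ± 0.15 SE (limma, unadjusted p = 0.138, adjusted p = 0.99998). With the assay as a block the 95% interval was -0.46 to -0.05 (limma, unadjusted p = 0.0244), and the adjusted p of 0.859 over all probe sets did not pass. It was the only member with an unadjusted p under 0.05 in that fit, where 3.07% of all genes were lower and 2.82% higher at such a p.

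The other Npc2 probe sets were lower less evenly. The next brightest read 11276, 12750 and 14597 against 14481, 13737 and 16870, with pair differences of -0.36, -0.11 and -0.21. Another differed by -0.34, 0.05 and 0.03 in the 3 pairs. The faintest, near the floor, differed by -0.49, -0.33 and -0.32. Npc2 kept its sign in all alternatives run, with values from -0.36 without mutant array 3 to -0.15 without wild-type array 3.

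Smpd1, the acid sphingomyelinase, read 333, 422 and 305 on the mutant arrays and 385, 468 and 352 on the wild-type arrays. It differed from its partner by -13.0% to -9.55% in the 3 pairs, with a log2 difference of -0.18 ± 0.17 SE, overlapping groups and an unadjusted p of 0.0707 by limma with the block (adjusted p = 0.859). Psap, the precursor of the saposins that present sphingolipids to their hydrolases, read 24765, 20525 and 29098 against 26609, 27576 and 27875. The low value was mutant array 2, and the difference was -0.16 ± 0.15 SE. Gm2a, the activator protein for ganglioside GM2, read 1498, 1597 and 1368 against 1939, 1886 and 1132. It was lower in assays 1 and 2 and higher in assay 3.

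The other lipid enzymes were closest to 0. Lipa, the acid lipase for cholesteryl esters and triglycerides, differed by 0.01 ± 0.17 SE, with pair values of -0.19, 0.07 and 0.15. Asah1, the acid ceramidase, differed by 0.01 ± 0.22 SE, with pair values of -0.26, 0.08 and 0.22. Ppt1, which removes palmitate from proteins, differed by 0.03 ± 0.21 SE. All 7 genes of this class were lower in the pair of assay 1, and 2 of the 7, Npc2 and Smpd1, were lower in that of assay 3. Without the pair of assay 1 the class median was 0.0159.

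Grn, a secreted and lysosomal glycoprotein processed into granulins, read 25097, 24702 and 27442 on the mutant arrays and 25834, 25224 and 28175 on the wild-type arrays. Its pair differences of -2.85% to -2.07% had the same sign but were small beside the distance of assay 3 from the others. The log2 difference of -0.04 ± 0.10 SE turned positive without wild-type array 3. The other Grn probe sets, also bright, had mixed signs. Their pair differences were -0.06, 0.01 and -0.05 on the brighter and -0.03, -0.003 and 0.12 on the other. Tpp1, which cleaves tripeptides from protein ends, read 6954, 7540 and 8736 against 8444, 7800 and 7671. It was lower in assays 1 and 2 and higher in assay 3, with a difference of -0.05 ± 0.12 SE.

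**Figure D3:**
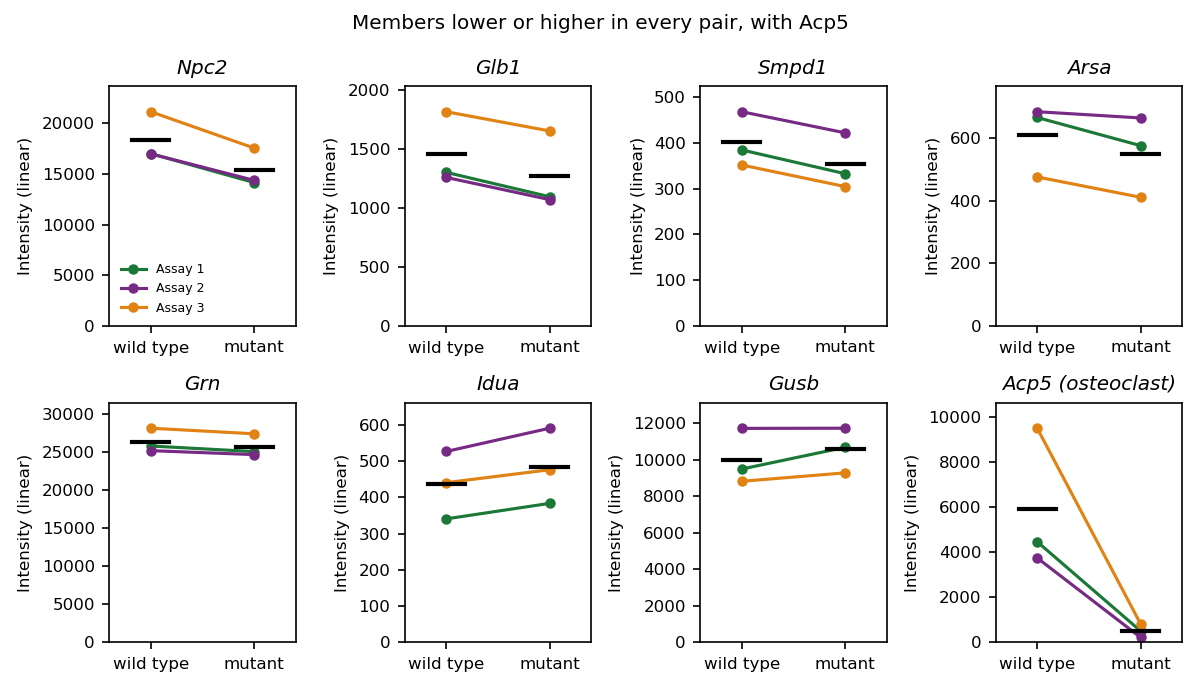
Linear intensity (y axis, from 0) in the wild-type and mutant arrays (x axis) for the 7 lysosomal genes that had the same sign in every pair, and for the osteoclast gene Acp5. Lines join the arrays of an assay and black bars are group means (n = 3). The lines of the lysosomal genes slope far less than those of Acp5, with the largest fall at -17.0% in a pair of Npc2, and their groups overlap. Acp5 read 3745 to 9497 in the wild type and 220 to 818 in the mutant.

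None of the 6 membrane proteins measured had the same sign in every pair on its representing probe set, and their median log2 difference was -0.00454. Lamp1 and Lamp2, the heavily glycosylated proteins that line the lysosomal membrane, differed by -0.03 ± 0.12 and -0.05 ± 0.29 SE. The other Lamp2 probe sets above the filter went the other way, by 0.12, 0.05 and 0.21. Those at 0.05 and 0.21 were higher in every pair. Lamp1 was lower in assays 1 and 2, by -0.22 and -0.11, and higher in assay 3, by 0.23. Scarb2, which carries glucocerebrosidase to the lysosome, had the same order with -0.15, -0.11 and 0.33. Laptm5, a membrane protein of blood cell lysosomes, read 27419, 33888 and 41838 on the mutant arrays and 29881, 31549 and 38553 on the wild-type arrays. Both groups read highest in assay 3, and the difference was 0.03 ± 0.20 SE. Mcoln1, the calcium channel TRPML1, read 878, 730 and 732 against 795, 657 and 735. It differed by 0.09 ± 0.13 SE and kept a positive sign in the alternatives run on it, except that its second probe set differed by -0.07. Npc1, the membrane partner of Npc2, differed by -0.10 ± 0.24 SE, with pair values of -0.04, -0.51 and 0.25. The pair values of Npc1 thus varied more than those of the representing Npc2 probe set, whose difference did not pass the adjusted test. The difference between these genes was not tested.

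The genes with and without a core E-box in their promoter are described side by side, and the gap between them was not tested. The 8 with a core had a median log2 difference of -0.0193, 5 lower and 3 higher, between -0.20 (Glb1) and 0.09 (Mcoln1). The 19 measured genes with a promoter but no core had a median of -0.0366, 11 lower and 8 higher, between -0.33 and 0.14. Lamp1, with 4 cores, differed by -0.03, and Gla, with 2 palindromes, by -0.15. Npc2, with a promoter but no match, differed by -0.26.

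The level of these genes varied more with the replicate number than with the group, as was the case over all genes. The replicate number splits the arrays into more classes than the group does, and the cause was not tested. Over the 30 genes the replicate number accounted for 81.2% of the sum of squares and the group for 4.96%, against 81.1% and 8.75% over all genes. In 10 of the 30 genes both arrays of assay 3 read above the other 4 arrays (33.3%, against 15.8% of all genes), and in 5 both read below (16.7%, against 33.8%). The 10 were Glb1, Gla, Asah1, Ppt1, Psap, Npc2, Grn, Lamp2, Laptm5 and Scarb2. Lamp2 was 1.57-fold and Glb1 1.47-fold higher in assay 3 than in the other assays. The 5 low ones were Gusb, Arsa, Galns, Lipa and Gm2a, and Galns stood at 0.426 of its level in the other assays.

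Most stromal marker genes also read higher in assay 3. The summed intensity of 9 stromal markers was 7263 on mutant and 5464 on wild-type array 3 and 212 to 462 on the other arrays, with Thy1 and Lum near the floor of the arrays throughout. Dcn read 62.9 on wild-type array 3 and stayed near the floor on the other arrays. The part of the stromal markers in the lysosomal levels was not tested. The assay 1 arrays were both lowest in 9 of the 30 genes (background 16.9%), among them Hexa, Gaa, Idua and Sgsh, and both highest in 2, Arsb and Mcoln1 (6.67%, against 12.2%). The assay 2 arrays were both highest in 9 (background 23.7%), 6 of them glycosidases, and both lowest in 1, Mcoln1 (3.33%, against 6.24%).

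**Figure D4:**
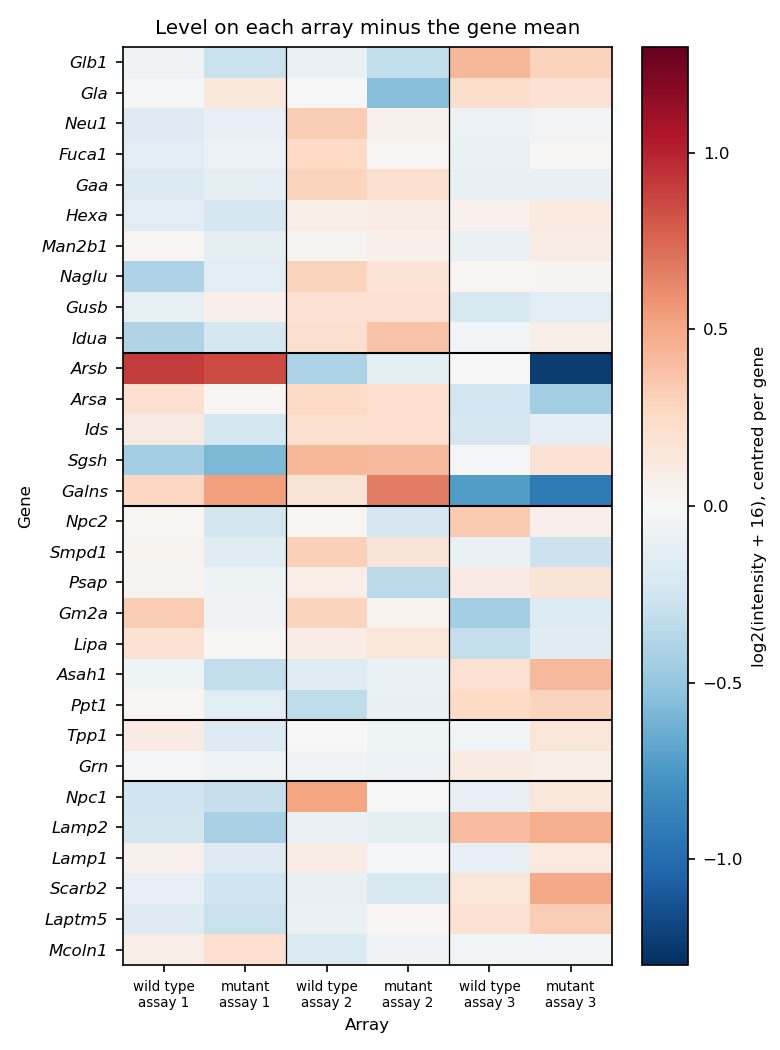
Level of each lysosomal gene (y axis) on each array (x axis, grouped by assay) as log2(intensity + 16) minus the mean of the gene over the 6 arrays; red is above and blue below that mean. Neighbouring columns of an assay mostly look alike, as in Galns, Sgsh and Lamp2, and Arsb in assay 3 is an exception.

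Mutant array 2 stood apart from the other arrays in its RNA quality controls. The control probe sets for 18S ribosomal RNA read 4167, 704 and 623 there (3′, middle and 5′) and at most 130, 92.1 and 93.5 on the other arrays. The ratio of 5′ to 3′ signal was 0.375 for beta-actin, against 0.553 to 0.668 elsewhere, and 0.779 for Gapdh, against 0.964 to 1.34. Of 22 lysosomal genes with more than 1 probe set above the filter, the mean differences of the probe sets shared a sign in 11 and not in the other 11. Among the 27 additional probe sets with a mean intensity of at least 100, 5 were lower in the mutant by more than 0.5 log2 units in the pair of assay 2 (18.5%), and the count was 0 for the pairs of the other assays. Over all genes such probe sets made up 16.5% in assay 2, compared with 3.64% and 3.52% for assays 1 and 3. Higher by as much was 1 of the 27 in assay 1 (3.7%) and 0 in assays 2 and 3, against 4.01%, 6.64% and 2.57% over all genes in assays 1, 2 and 3. These 5 belonged to Gm2a, Psap, Laptm5, Fuca1 and Gusb.

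For Psap the additional probe set read 9928 on mutant array 2 and 17987 to 22497 on the other arrays. That of Gm2a read 333 on mutant array 2 and 615 to 971 elsewhere, and that of Gusb 1581 there and 2691 to 4651 elsewhere. The representing probe sets of Gm2a and Gusb showed no such shortfall. The part of RNA quality in these values was not tested. Without mutant array 2 the median over the 30 genes was -0.0374, and without both arrays of assay 2 it was -0.00163.

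**Figure D5:**
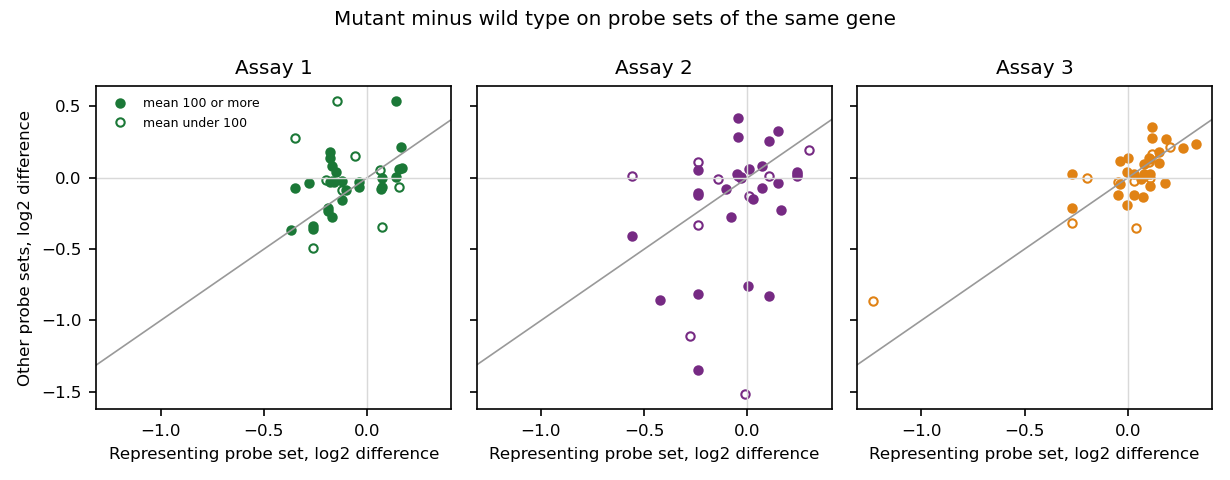
Log2 difference, mutant minus wild type, on the additional probe sets of a lysosomal gene (y axis) against that on its representing probe set (x axis), 1 panel per assay; filled points have a mean intensity of at least 100 and the grey line marks equality. In assay 2 a group of points lies far below the line, down to -1.52 for a faint Sgsh probe set, which the panels of assays 1 and 3 do not show.

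Other genes of the lysosome were read from the same fit, from 4 lists with 83 genes, of which 76 were above the filter. By limma 0 of the 76 passed, 2 had an unadjusted p under 0.05 (against 1.14% of all genes), and the median log2 difference was 0.00401. All mutant arrays lay below all wild-type arrays in 2 (2.63%, against 1.96% of all genes). They lay above in 1 (1.32%, against 1.36%). Lower in every pair were 7 (9.21%, against 12.0% of all genes) and higher in every pair 10 (13.2%, against 14.5%). Tfec, a relative of TFEB, read 311, 317 and 427 on the mutant arrays and 445, 616 and 617 on the wild-type arrays, without overlap. Its difference was -0.64 ± 0.20 SE (limma, unadjusted p = 0.0195, adjusted p = 0.99998). The 18 regulators of lysosomes to which it belongs had a median of 0.0301.

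Sorting genes held the other gene with such a p. Gga2 is an adaptor that packs mannose 6-phosphate receptors at the Golgi. It read 628, 678 and 561 on the mutant arrays and 764, 955 and 865 on the wild-type arrays. The groups did not overlap, and the difference was -0.46 ± 0.13 SE. M6pr, a mannose 6-phosphate receptor, was lower in every pair, by -0.23 ± 0.14 SE, and read 4647, 4328 and 3861 against 5243, 5554 and 4295. Igf2r, the larger of these receptors, differed by -0.50 ± 0.31 SE, mostly in the pair of assay 2 (-1.42). Of the 12 sorting genes 7 had a lower mean and 5 a higher one, with a median of -0.0121.

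Among 20 other hydrolases and their helpers the median was 0.00260. Smpdl3b, a membrane-bound relative of Smpd1, read 335, 336 and 130 on the mutant arrays and 232, 139 and 70.2 on the wild-type arrays. It was higher in every pair, by 0.81 ± 0.53 SE, opposite to Smpd1, and did not pass (limma with the block, unadjusted p = 0.00706, adjusted p = 0.859). Dnase2a, the acid DNase, and Galc, which acts on galactosylceramide, were higher in every pair by 0.27 ± 0.16 and 0.29 ± 0.19 SE. Sumf1, which activates sulfatases, differed by 0.23 ± 0.14 SE. The 26 other membrane and transport genes had a median of 0.0242, and among them Tmem9 was higher without overlap (0.24 ± 0.12 SE).

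The macrophage label was checked against marker genes. All 11 macrophage markers measured lay above the filter, and their summed intensity ranged from 219991 to 245266 in the mutant and from 225424 to 237120 in the wild type. Of markers of other blood cells, S100a8 and Ms4a1 passed the filter, the latter reading at most 11.7. S100a8 ranged from 128 to 649 in the mutant and from 212 to 677 in the wild type, while Mpo and Elane stayed near the floor. Summed markers of dendritic cells were 29.6 to 30.4 except on wild-type array 3, where they were 126, mostly from Ccr7.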

How the data were processed

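RNA was measured with Affymetrix Mouse Genome 430 2.0 arrays. The values deposited by the authors are linear intensities, with a 75th percentile of 160 to 164 on each array. GCOS and GCRMA appear in the submitters' processing notes, which do not state their order or settings. GCRMA includes a quantile step that equalises arrays, which can hide a shift common to all genes, and dim probe sets lie near a floor. No further normalization was applied.

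Of 45101 probe sets 64 controls were left out, and those above the median of their array on at least 3 of 6 arrays were kept (22497). Values were transformed to log2(intensity + 16). The fit was limma 3.58.1 in R 4.3.3 (lmFit, eBayes, two-sided), mutant minus wild type, with Benjamini-Hochberg adjustment over all kept probe sets. Groups and replicate numbers came from the sample titles. Deviations of same-numbered arrays from their group means correlated at 0.797, 0.671 and 0.845, and those of other pairs at -0.618 to -0.0138. Centring on the group means pushes the latter to be negative once the former are positive, so their sign adds no separate support. The labels describe independent assays, and arrays with the same number were taken as pairs. The fit with the replicate number as a block was an alternative. The fits were tested on simulated data with changes larger than the mean differences of the lysosomal genes, so that test does not cover differences this small. The number of arrays limits the precision.

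Members and lists were chosen with earlier results of these data known, so lists are described by counts and medians with no list test. All 31 members could be named; values on every array are given for members with the same sign in every pair or no overlap, for the brightest and dimmest of each class, and for others chosen after their values were seen. Of each related list up to 4 genes with the smallest p could be named. Symbols came from the platform annotation, and sequences from RefSeq (GRCm38.p6).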

Additional observations from a re-analysis of the deposited data

How the results depend on the processing

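With 3 arrays per group, an uncalled difference does not show equal levels, and the interval sets what can be said. The count of lysosomal genes called was 0 by limma in every alternative run, the replicate block, the random replicate block and each left-out array or pair included, and the related genes called were 0 in the alternatives run on them; unadjusted counts at p under 0.05 were 0 of 30 and 2 of 76 in the fit without the block. With the replicate block they were 1 of 30 (lower) and, of the 76, 3 lower and 3 higher. Over all genes 1.14% had such a p without the block. With the block 3.07% of all genes were lower and 2.82% higher at such a p. The replicate block changed no call at an adjusted p under 0.05. Leaving out arrays or pairs moved the medians over ranges of -0.0880 to 0.0268 (30 genes), -0.0991 to 0.0982 (glycosidases), -0.209 to 0.0553 (sulfatases), -0.172 to 0.0159 (lipid genes), -0.159 to 0.106 (membrane proteins) and -0.0672 to 0.0886 (related genes). Genes with a lower mean numbered 11 to 23. Genes lower in every pair numbered 6 to 13 and higher 4 to 9 with 2 pairs left, a looser condition by construction. Higher in every pair was 1 gene with the mean of all probe sets of a gene and 1 of 22 with the second probe set of each gene, an alternative chosen after seeing the data. Counts over pairs were not run with single arrays left out, which only removes a pair. Other settings moved each median by less than the spread between pairs, but signs near 0 turned. The glycosidase median was negative in 9 of 17 alternatives, among them median centring and the mean of probe sets, and the membrane protein median was positive in 9 of 17, among them quantile normalization and the mean of probe sets. The median over the 30 genes turned in 3 of 17 (without mutant array 1, without wild-type array 2, without the pair of assay 1). The cause was not tested.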

Other observations

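Some probe sets of Lamp2 and Mcoln1 that did not represent their genes were higher in every pair. A Lamp2 probe set read 7030, 8069 and 6613 on the mutant arrays and 6208, 6039 and 6501 on the wild-type arrays, without overlap, a log2 difference of 0.21 ± 0.11 SE. The faintest Mcoln1 probe set above the filter read 102, 98.4 and 150 against 65.3, 75.1 and 145, a difference of 0.30 ± 0.31 SE. Neither passed by limma, and both were chosen after their values were seen. Their positions in the transcripts were not used here.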
